A study of Drosophila melanogaster with 3 samples.

Results

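The 10 genes described here belong to the epidermal growth factor receptor (EGFR) pathway of Drosophila melanogaster. They are Egfr, spi, vn, aos, sty, kek1, Mkp3, pnt, aop and edl. These genes encode the receptor, ligands, feedback inhibitors, Ets-domain factors and a regulator of those factors. They were examined in chromatin immunoprecipitation sequencing (ChIP-seq) of whole prepupae aged 1 day from the fly strain CG8119-GFP, whose transgene makes the product of CG8119 as a fusion with enhanced green fluorescent protein (eGFP). An antibody against the tag was used for the pull-down, and 3 biological replicates of this 1 group were analysed. All of them carry the transgene. The sources used here give neither its promoter nor the number of animals per sample. Peaks were taken where the summit lay in the body of one of the 10 genes or within 5 kb of it, which gave 59 of 7279 peaks in replicate 1, 54 of 6769 in replicate 2 and 41 of 4608 in replicate 3, or 0.833% ± 0.0498 of a list (SD, n = 3). Summits that lay within 150 bp of a neighbouring summit were joined into loci, and loci where every one of the 3 replicates had a summit are called shared. Of 3746 shared loci in the genome, 32 lay in these windows, and all 10 genes had at least 1.

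EGFR is a receptor tyrosine kinase. In the fly, secreted ligands such as Spitz (spi) and Vein (vn) activate it, and the signal passes through Ras and the MAP kinase Rolled to the nucleus. There the activator Pointed (pnt) and the repressor Anterior open (aop, also called Yan), both Ets-domain proteins, compete for target genes. The pathway is known for inducing its own inhibitors, among them the secreted antagonist Argos (aos), the intracellular inhibitor Sprouty (sty), the transmembrane protein Kekkon 1 (kek1) and the MAP kinase phosphatase Mkp3, and it acts repeatedly in the imaginal tissues that build the adult. A peak here is a place where pulled-down fragments were concentrated, and it does not show that the nearby gene is regulated. In whole animals, weak signal from many cells and strong signal from few cannot be told apart.

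The sequences at the strongest shared loci are shown because base composition was not used in choosing the loci and differed between them. Each run is the 150 bp around the centre of the strongest shared locus of a gene, from the RefSeq copy of the dm6 build, read 5′ to 3′ on the plus strand. The runs lie at chr3L:3418887-3419036 for sty, chr3L:19086781-19086930 for Mkp3, chr2L:19575743-19575892 for spi, chr3L:5834367-5834516 for vn, chr3R:23334360-23334509 for pnt, chr3L:16483843-16483992 for aos, chr2L:2163583-2163732 for aop and chr2L:12823768-12823917 for kek1. Capitals mark GAGAG, the core of the repeat recognised by the GAGA factor, or its reverse complement, which was the only one of 7 searched words found in these runs. Egfr and edl are described by their values alone.
sty: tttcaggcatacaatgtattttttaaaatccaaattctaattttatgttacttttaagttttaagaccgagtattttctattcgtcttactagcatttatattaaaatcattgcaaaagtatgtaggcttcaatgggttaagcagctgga
Mkp3: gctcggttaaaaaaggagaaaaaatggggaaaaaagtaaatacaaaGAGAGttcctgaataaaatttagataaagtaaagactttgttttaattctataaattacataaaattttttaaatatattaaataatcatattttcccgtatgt
spi: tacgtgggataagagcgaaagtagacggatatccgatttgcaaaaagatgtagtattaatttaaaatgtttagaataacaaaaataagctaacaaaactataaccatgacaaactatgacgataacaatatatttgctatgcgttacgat
vn: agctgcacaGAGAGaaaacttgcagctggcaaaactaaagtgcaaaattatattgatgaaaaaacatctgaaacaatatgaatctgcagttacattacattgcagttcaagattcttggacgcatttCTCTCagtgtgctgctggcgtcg
pnt: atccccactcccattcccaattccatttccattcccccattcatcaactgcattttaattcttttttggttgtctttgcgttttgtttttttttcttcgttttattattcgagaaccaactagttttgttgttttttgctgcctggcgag
aos: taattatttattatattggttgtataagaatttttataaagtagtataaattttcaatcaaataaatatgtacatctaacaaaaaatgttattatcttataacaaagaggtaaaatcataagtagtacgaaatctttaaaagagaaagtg
aop: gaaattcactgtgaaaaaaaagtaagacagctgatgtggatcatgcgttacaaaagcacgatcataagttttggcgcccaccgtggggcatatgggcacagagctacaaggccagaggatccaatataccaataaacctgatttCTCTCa
kek1: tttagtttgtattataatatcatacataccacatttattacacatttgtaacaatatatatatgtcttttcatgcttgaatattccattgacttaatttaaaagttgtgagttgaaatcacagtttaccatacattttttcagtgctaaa

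Each of these runs held more A and T than G and C. Their GC content was lowest at aos (18.7%), Mkp3 (22.0%), kek1 (24.0%) and sty (28.0%), and highest at spi (30.0%), pnt (37.3%), vn (39.3%) and aop (44.0%). Over all 32 shared loci, the window of 201 bp around the centre had a median GC content of 35.8%, with a lowest value of 14.9% and a highest of 53.7%. Windows of the same width 500 bp to either side had a median of 45.8%, and 24 of the 32 loci had a lower GC content than the mean of their own flanks. A lower GC content than the flanks was also found at 83.0% of all shared loci, whose median was 32.8% against 42.8% in the flanks. The lowest value, 14.9%, belonged to the locus before the start of edl. The remaining 8 loci had a higher GC content than their flanks and included the strongest locus of Egfr, with 48.8% against 38.1%.

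**Figure D1:**
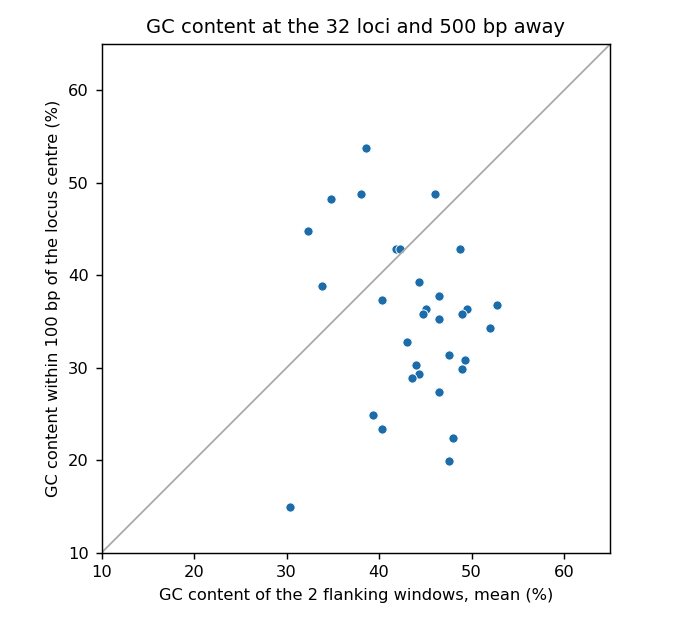
GC content (%) of the 201 bp around the centre of each of the 32 shared loci (vertical axis) against the mean of the windows of the same width 500 bp to either side (horizontal axis); the line marks equal values. Of the 32 points, 24 lie below the line.

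GAGAG, searched on both strands within 100 bp of the centre, was found at 12 of the 32 loci (37.5%), which lay at 7 of the 10 genes, in 16 of 64 flanking windows (25.0%) and at 23.1% of all shared loci. The window before the downstream start of pnt (offset of −322 bp) held 5 copies of it, counted with overlaps, and the one before a start of aop (offset of −137 bp) held 3. CGGAA, the core word of sites for Ets-domain proteins, was found at 4 of the 32 loci (12.5%), in 18 of 64 flanking windows (28.1%) and at 16.3% of all shared loci. Of the remaining words, CACACA lay at 6 loci (18.8%), in 23 of 64 flanking windows (35.9%) and at 14.6% of all shared loci. ATCGATA, part of the DREF site, lay at 2 loci (6.25%), in 1 of 64 flanking windows and at 2.51% of all shared loci. TGAATGA, part of the Capicua site, lay at 1 locus, in 10 of 64 flanking windows (15.6%) and at 4.38% of all shared loci. AGGTCA, a word recognised by nuclear receptors, lay at 1 locus, in 2 of 64 flanking windows and at 3.47% of all shared loci. CAGGTAG, the word of the factor Zelda, was found at none of the 32 loci, in none of the 64 flanking windows and at 0.587% of all shared loci. In the flanking windows of all shared loci, GAGAG was found in 25.7%, CGGAA in 25.9%, CACACA in 20.6% and TGAATGA in 3.98%. There ATCGATA was found in 2.40%, AGGTCA in 4.55% and CAGGTAG in 1.05%. These word counts were not tested, and a match describes letters and not a site of action.

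The number of shared loci per gene ran from 1, at vn and kek1, to 6, at pnt. A shared locus in the body or within 5 kb was found for 10 of 10 genes, while 32.8% of the 13968 protein-coding genes had one. At least 2 shared loci were found for 8 of the 10, against 10.9% of protein-coding genes, and at least 4 for 5 of the 10, against 2.08%. The genes are long, with a median body of 21272 bp against 2165 bp for all protein-coding genes, and a longer window catches more loci. Among the 2820 protein-coding genes whose bodies are as long as the shortest to the longest of these 10 (5788 to 55937 bp), 49.5% had a shared locus in the window, with a mean of 0.967 loci per gene against 3.2 here. Per length, the merged windows of the 10 genes held 0.980 shared loci per 10 kb, and the merged windows of all protein-coding genes 0.306. These values describe 10 genes chosen with earlier results of the same lists known, and they were not tested.

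**Figure D2:**
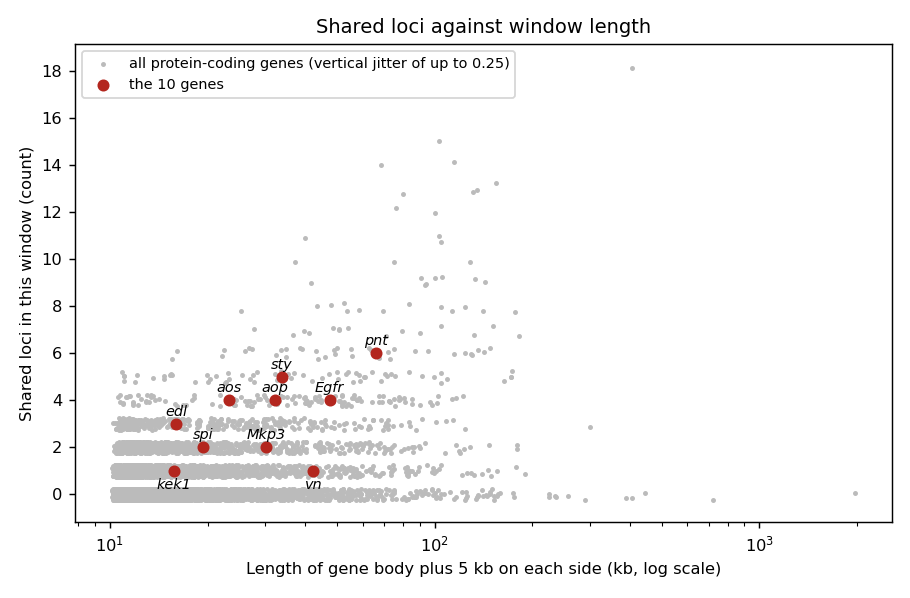
Number of shared loci in the gene body plus 5 kb on each side (vertical axis, count) against the length of that window (horizontal axis, kb, log scale) for 13968 protein-coding genes (grey, with vertical jitter) and the 10 EGFR pathway genes (red). Among the 10, pnt has the most loci, 6, and kek1 and vn have 1 each.

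Strength is given as the percentile of the authors' signal within a replicate's own list, averaged over the 3 replicates. The median strength of the 32 loci was 79.5, with quartiles of 57.3 and 90.6, and that of all shared loci was 66.6, with quartiles of 47.5 and 83.4. A strength of 90 or more was reached by 9 of the 32 loci (28.1%), against 15.3% of all shared loci. These 9 lay at 8 of the 10 genes. The share of all protein-coding genes with such a locus was not counted, so the 8 describe these genes alone. A strength under 50 was found for 7 loci (21.9%), against 27.8% of all. In replicates 1, 2 and 3 the median percentile of the 32 loci was 81.9, 82.1 and 74.1, and over all shared loci it was 73.3, 71.2 and 58.8. Replicate 3 has the shortest list, and percentiles from lists of different lengths show no change between replicates. The median SD between replicates was 1.80 percentile points among the loci of 90 or more and 13.6 among those under 50, but percentiles end at 100, which narrows the spread of the strongest loci. The coefficient of variation of the signal over the replicates had medians of 18.8% and 19.5% in these sets. Across the 32 loci the signal had Spearman's rho of 0.941 between replicates 1 and 2, 0.927 between 1 and 3 and 0.963 between 2 and 3. Pearson's r of the log2 signal over these 32 was 0.938, 0.933 and 0.961 for the same pairs. Over all 3746 shared loci, Spearman's rho was 0.880, 0.874 and 0.879 for these pairs. These are correlations across loci, which come from the same libraries and are not independent.

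**Figure D3:**
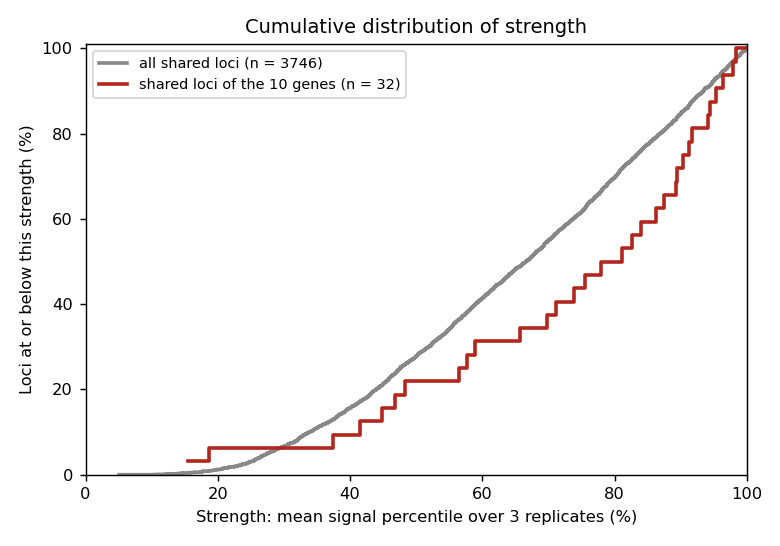
Cumulative share of loci (vertical axis, %) at or below a given strength (horizontal axis, mean signal percentile over 3 replicates, %) for all 3746 shared loci (grey) and the 32 of the EGFR pathway genes (red). The red curve lies to the right of the grey one over most of the range, with medians of 79.5 and 66.6, and above it at the weak end, where loci of pnt and aop lie at 15.5 and 18.7.

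Ordered by their strongest locus, the genes ran from edl (98.4 ± 0.466) through sty (97.8 ± 1.10), Egfr (96.4 ± 1.17), Mkp3 (95.3 ± 0.843), spi (94.4 ± 2.49), vn (94.1 ± 1.96), pnt (91.7 ± 2.83), aos (90.4 ± 2.28) and aop (87.5 ± 1.27) to kek1 (48.4 ± 18.5; SD, n = 3 for each). Of the 9 pairs of neighbours in this order, 3 differed by more than the larger of their SDs, namely sty above Egfr, by 1.46 percentile points, aos above aop and aop above kek1. The other 6 pairs differed by no more than that SD. This rule ignores that all loci were measured in the same 3 libraries. Within each replicate, sty lay above Egfr, vn above pnt and aop above kek1. In replicate 3, however, aos lay below aop, at percentiles of 88.3 and 88.9. The remaining pairs also changed order between replicates.

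**Figure D4:**
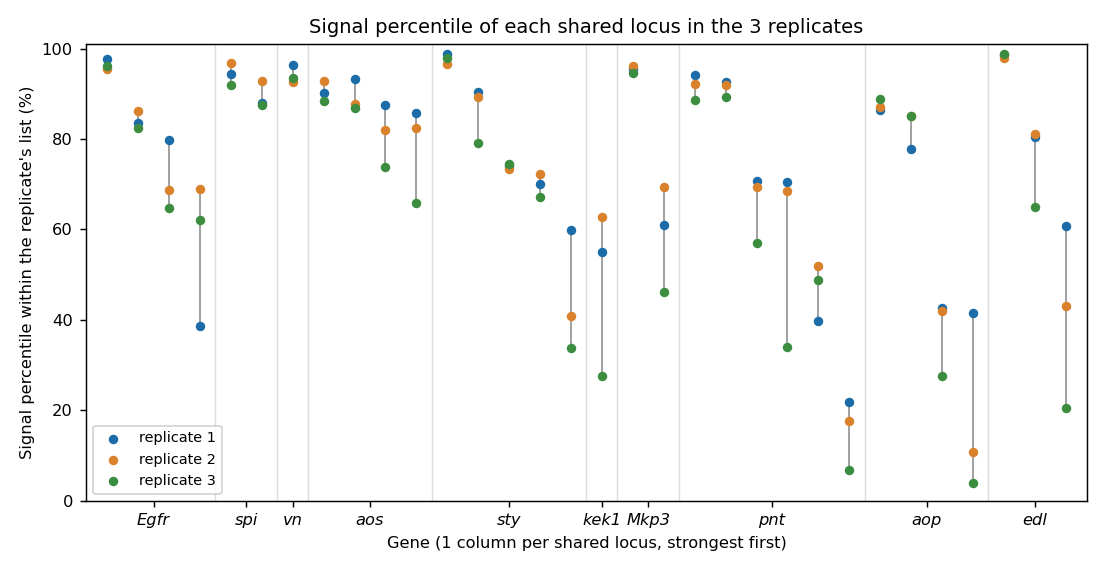
Signal percentile within each replicate's own list (vertical axis, %) for the 32 shared loci, grouped by gene and ordered from the strongest (horizontal axis); points are replicates and the grey line joins their range. The strongest loci of edl, sty, Egfr and Mkp3 lie between 94.5 and 98.9 in all 3 replicates, and the only shared locus of kek1 spans 27.5 to 62.7.

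The receptor gene Egfr (2R, 21522420 to 21559977, plus strand) had 4 shared loci, all in introns and none within 500 bp of either of its 2 annotated starts. The strongest lay 1839 bp after the upstream start (centre at 21524259), with a signal of 520 in replicate 1, 378 in replicate 2 and 384 in replicate 3, in the authors' units. It held rank 170 of 7279 peaks, rank 312 of 6769 and rank 183 of 4608, and was high in every list. A pair of loci lay 3989 and 4854 bp after the downstream start, at strengths of 71.1 ± 7.75 and 84.0 ± 1.97 (SD, n = 3). The remaining one, 4041 bp before the downstream start, was closer to the start of CG30283 and had percentiles of 38.5, 68.9 and 62.0, with replicate 1 below the other replicates. Counting loci of any number of replicates, 10 lay in the Egfr window.

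Of the ligand genes, spi (2L, 19567900 to 19577315, minus strand), which encodes the membrane-bound precursor of the main ligand, had 2 shared loci, each just before one of its 3 annotated starts. At an offset of −230 bp (centre at 19575817) the signal was 361, 438 and 285 in replicates 1, 2 and 3, and at −325 bp from another start (19572935) it was 246, 309 and 229. The percentiles ran from 87.5 to 96.9 and were highest in replicate 2 and lowest in replicate 3 at both loci. The most upstream start of spi had no shared locus within 500 bp, and the nearest lay 1498 bp downstream of it. vn (3L, 5813338 to 5845664, minus strand), which encodes a neuregulin-like ligand, had 1 shared locus, in an intron 11223 bp after its only annotated start (5834441). Its signal was 429, 303 and 310, at percentiles of 96.3, 92.6 and 93.4, so the locus was high in all 3 lists. A further 4 loci in the vn window had a summit in 1 replicate only.

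Among the feedback inhibitors, aos (3L, 16470386 to 16483650, minus strand) had 4 shared loci spread from 267 bp before its start to 6819 bp after it. The locus before the start (16483917) had a signal of 275, 308 and 237. The intronic loci 1288, 3082 and 6819 bp after the start had strengths of 78.0 ± 10.7, 89.3 ± 3.49 and 81.1 ± 6.83 (SD, n = 3), with the percentile of replicate 3 the lowest at each. All 4 also lie within the body of CG33158, an overlapping gene, and the start nearest to each of them is that of aos. The windows of edl and aos had the most shared loci per length of the 10, with 1.87 and 1.72 per 10 kb.

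sty (3L, 3401153 to 3424935, minus strand) had 5 shared loci, of which 1 lay in the body and 4 past its end. The locus in the body (3418961), in an intron 1000 bp before the downstream of its 2 starts, had the highest signal of the inhibitor genes, with 653 in replicate 1, 425 in replicate 2 and 471 in replicate 3. It held ranks 84, 226 and 94. The other 4 lay in intergenic DNA at 458, 1739, 3125 and 4890 bp past the end of the gene, where the nearest annotated start is that of the noncoding gene lncRNA:CR45737. Their strengths were 44.8 ± 13.6, 73.9 ± 0.490, 69.8 ± 2.55 and 86.2 ± 6.24 (SD, n = 3). The locus at 1739 bp had percentiles of 74.0, 73.4 and 74.4, close together in the replicates. Shared loci continued beyond the window, at 5573, 6145 and 6446 bp past the end, with strengths of 61.6, 82.2 and 55.3.

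Mkp3 (3L, 19066155 to 19086426, minus strand) had a shared locus at each of its 2 annotated starts. The one at −429 bp from the upstream start (19086855), which 3 of its 4 annotated transcripts use, had a signal of 396, 405 and 334. The one 26 bp after the downstream start (19072370) was weaker, with 113, 135 and 91.6, and it was the only one of the 32 loci that lay in an exon of its gene. Every replicate had a higher signal at the upstream start than at the downstream one. kek1 (2L, 12817000 to 12822787, minus strand) had 1 shared locus, in intergenic DNA 1055 bp before its start (12823842), with a signal of 102, 118 and 71.5. Its percentiles were 54.9, 62.7 and 27.5, lowest in replicate 3, and it was weaker than the strongest locus of each of the other 9 genes.

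Of the Ets factor genes, pnt (3R, 23290231 to 23346167, minus strand), whose alternative starts give different isoforms of the activator, had the most shared loci, 6, all in the body. The strongest pair lay deep in introns, 11733 bp after the upstream start (23334434) and 12167 bp before the next one (23326482). The first had a signal of 354, 298 and 241 and the second of 322, 293 and 249, and at both the percentile was highest in replicate 1 and lowest in replicate 3. The annotated start nearest to each of them is that of lncRNA:CR46090, a noncoding gene within the window. The loci near the 3 annotated starts of pnt were weaker, with strengths of 65.7 ± 7.61 at 848 bp after the upstream start, 46.9 ± 6.34 at −323 bp from the middle one and 57.6 ± 20.5 at −322 bp from the downstream one (SD, n = 3). The last had percentiles of 70.5, 68.5 and 34.0, with replicate 3 apart from the other replicates. A locus 4794 bp before the middle start was the weakest of the 32, at 15.5 ± 7.79.

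aop (2L, 2156484 to 2178754, minus strand), the repressor gene, had 4 shared loci. The strongest lay in an intron 2130 bp before the downstream of its 2 starts (2163657), with a signal of 228, 227 and 244, at percentiles of 86.5, 87.0 and 88.9, close together in the replicates. The next lay 1499 bp before the upstream start (2180253), with 169, 209 and 209. The locus closest to a start, at −137 bp (2178891), was among the weakest, with percentiles of 41.5, 10.8 and 3.93, of which replicate 1 was far above the others. The remaining one, 4169 bp before the upstream start, lay in an exon of lncRNA:CR43751 and had a strength of 37.4 ± 8.57 (SD, n = 3). aop and pnt had 13 loci each when loci of any number of replicates were counted, the most of the 10 genes. Each count includes a weak summit of 1 replicate that lay within the peak interval of a shared locus. These summits were at 2179086 for aop (percentile 0.456) and at 23314808 for pnt (percentile 1.30).

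edl (2R, 18667527 to 18673536, minus strand) encodes a small protein, also called Mae, that binds Yan and Pointed. It had the strongest of all 32 loci, in its intron 1805 bp after the start (18671731), with a signal of 595 in replicate 1, 495 in replicate 2 and 568 in replicate 3. The ranks were 113, 143 and 55, and the 3 summits lay within 5 bp of each other, the closest of the 32 loci. The locus at −268 bp from the start was lower in each replicate, with 182, 183 and 125, and its summits were spread over 284 bp, the widest of the 32 (median 32.5 bp). The remaining locus, 4256 bp past the end, was nearer to the starts of CG42306 and Gint3 and had a strength of 41.4 ± 20.2 (SD, n = 3).

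**Figure D5:**
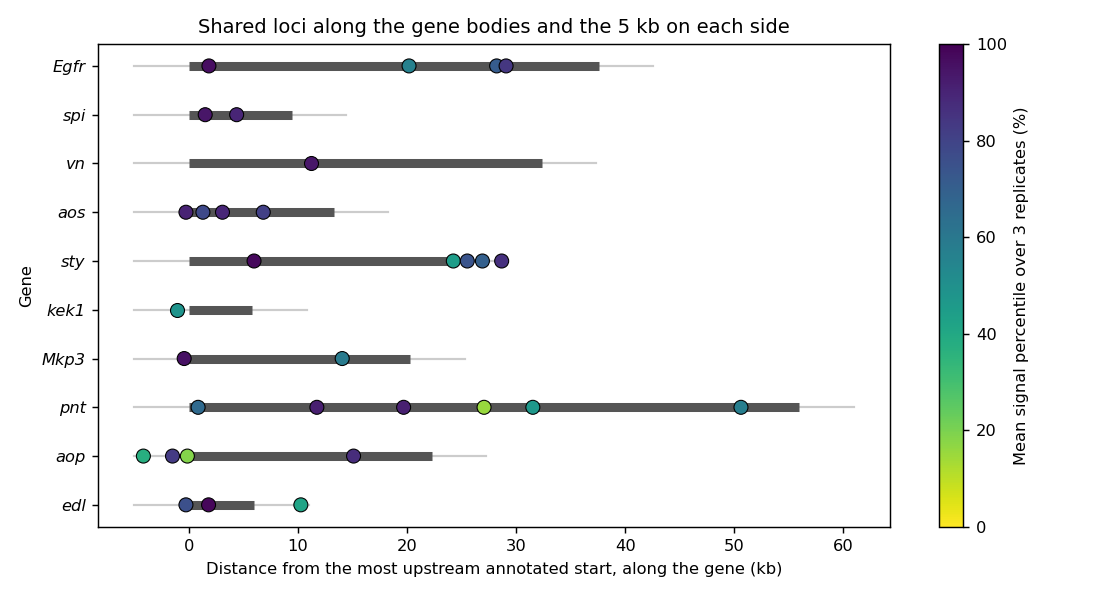
Shared loci (circles, coloured by mean signal percentile over 3 replicates, %) along each gene body (dark bar) and the 5 kb on each side (thin line), as distance from the most upstream annotated start in kb (horizontal axis), with 1 row per gene. The strongest loci of Egfr, sty and edl lie in introns 1 to 6 kb into the body, and 4 loci of sty lie past its end.

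By position, 20 of the 32 loci lay in the body of their gene, 7 upstream of it and 5 past its end. Introns held 15 loci (46.9%, against 49.4% of all shared loci), intergenic DNA 7 (21.9% against 16.4%), and promoters, meaning within 500 bp of any annotated start, 9 (28.1% against 32%). The median strength was 87.5 for the intronic loci, 75.5 for those at promoters and 69.8 for the intergenic ones, while over all shared loci it was 64.4, 73.4 and 62.1. These medians were not tested. The start nearest to the locus was that of the EGFR pathway gene for 23 of the 32, and 5 lay within the body of another gene.

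A shared locus within 500 bp of an own start was found for 6 of the 10 genes, namely spi, aos, Mkp3, pnt, aop and edl, against 9.06% of all protein-coding genes and 16.6% of those in the same range of body lengths. The 10 genes have 18 annotated starts, of which 9 had such a locus. Of these 9 loci, 8 lay upstream of the start, at a median offset of −268 bp and a lowest of −429 bp. Their strength ran from 18.7 to 95.3, and their median was 75.5, against 81.1 for the other 23 loci. The strongest locus lay within 500 bp of an own start in 3 of the 10 genes, namely Mkp3, spi and aos. The counts of starts, of upstream loci and of strongest loci at a start have no value over all genes beside them. They describe the 10 genes alone and do not show a trait particular to them.

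In the same windows, 23 further loci had a summit in 1 replicate and 15 in 2, so that 45.7% of 70 loci were shared, against 41.6% of all 9014. The 23 include the summits of aop and pnt that lay within the peak interval of a shared locus. The percentile of these 38 loci, averaged over the replicates that had them, had a median of 23.6 and a highest value of 55.1, in the body of pnt, where replicate 2 alone reached 62.3. Of the 61 missing replicate entries, 31 were of replicate 3, which has the shortest list. At 48 of the 61 (78.7%) the replicate's ranked list had a summit within 150 bp, with a median irreproducible discovery rate (IDR) of 0.0845, and none of these had an IDR of 0.01 or less. Ranked lists cut at that value gave 32 shared loci in the windows, as the thresholded lists did. A missing entry was thus nearly bound to lie above it, and this count carries no further result. The conservative list of the whole series, which is derived from the same reads, had a summit within 150 bp of all 32 shared loci, and of 99.5% of shared loci overall. At the limit of the window, the locus just inside, 4890 bp past the end of sty, had a strength of 86.2, and those just outside, at 5054 bp from vn and 5095 bp from edl, had 65.6 and 72.3.

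Other genes of the pathway were counted from a list of 39. A shared locus in the body or within 5 kb was found for 20 of them (51.3%, against 32.8% of protein-coding genes). One within 500 bp of a start was found for 3 (7.69% against 9.06%). Their median body is 9902 bp. Among protein-coding genes with bodies of 5788 to 55937 bp, the shares were 49.5% and 16.6%, but not all of the 39 are in that range. Of the 12 genes between the receptor and the MAP kinase, 7 had a locus in the window, led by the kinase gene Raf, with 8 loci and a strongest strength of 99.1 ± 0.290. The adaptor gene Shc followed at 97.4 ± 1.15 and the scaffold gene cnk at 95.7 ± 1.81, each with 2 loci (SD, n = 3), the strongest of them nearer to the start of another gene. ave, dos and Ras85D were among the 5 without one. Of 7 negative regulators 5 had a locus, led by the adhesion gene ed with 9 loci (96.9 ± 0.731), lbk with 2 (96.0 ± 1.76) and the repressor gene cic with 5 (94.2 ± 1.47), while Cbl and PTP-ER had none. Of 6 genes for ligands and their processing 4 had a locus, with ru, a rhomboid protease gene, at 87.3 ± 1.86 (6 loci), S, which encodes the trafficking protein Star, at 78.9 ± 5.43 (4 loci) and the ligand gene Krn at 75.9 ± 6.15 (1 locus), and grk and stet had none. The strongest loci of lbk, ru and Krn were also nearer to the start of another gene.

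Relatives of the 10 genes were counted in the same way. Of 6 other Ets-domain genes, Eip74EF, an ecdysone-induced factor gene, had 3 shared loci (strongest 90.4 ± 4.33; SD, n = 3), and the other 5, Ets21C, Ets65A and Ets96B among them, had none. Of 5 other kekkon genes, kek5 had 2 (72.7 ± 9.40) and kek6 had 1 (51.3 ± 6.15), and kek2, kek3 and kek4 had none. Of the nuclear effectors ttk, phyl and sina, ttk had 1 shared locus, at 69.9 ± 10.4. No difference between the relatives and the 10 genes was tested. Outside the pathway, the genes most like pnt in their number of shared loci and window length (65937 bp) were Pdp1 (65912 bp), Ptp10D (65324 bp) and Bx (67382 bp), each with 6. In all, 39 protein-coding genes had 6 shared loci and 53 had more.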

How the data were processed

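The authors deposited a ranked and a thresholded peak list for each of 3 replicates, all on build dm6 as the deposited README texts state. The aligner, the peak caller and the read depth are not given in those sources. Each deposited list holds a signal per peak on a scale that is not stated, and a scaled IDR score, at least 830 in the thresholded lists. Signals were ranked within each list. They are also printed side by side and correlated over loci, but whether they share a scale between replicates is not stated. The deposited ranked lists hold the −log10 of the global IDR. Summits on the main chromosome arms were joined where neighbours lay within 150 bp, and the centre of a locus is its median summit. Where a replicate had several summits, the highest signal was used. Gene models came from Ensembl release 115, whose coordinates matched those of RefSeq for 13966 of 13968 protein-coding genes. The joining was run on simulated data (Python 3.11.15, pandas 2.3.3). The simulated loci lay much farther apart than the join distance, so the outcome was nearly fixed and closely spaced summits were not covered. The genes and lists were chosen with earlier results of these data known. All 10 genes are named. Of the other pathway genes, up to 3 with the strongest loci and up to 3 without a locus, in alphabetical order, were named per role; a listed pair of symbols, Gap1 and RasGAP1, was 1 gene. With 1 group, no test between conditions was possible, and values are descriptions over 3 replicates, whose spread may hold technical differences. The other 7 lists of the whole series were not used. The alternatives left out each replicate and changed the join distance, the window, the start distance, the peak lists, the overlap rule and the assignment of loci.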

Additional observations from a re-analysis of the deposited data

How the results depend on the processing

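All 10 genes kept a shared locus in the window in 10 of 12 alternatives, and 9 did with the body only, where kek1 has none, and in the stronger 50% of each list, where kek1 again has none. Leaving out a replicate, a window of 10000 bp or a join distance of 300 bp loosens the rule and could hardly lose a gene. The ranked lists at an IDR of 0.01 or less gave the same count of 32 loci. These outcomes were therefore nearly fixed in advance and do not show stability. With the body only, 20 loci were counted at a median strength of 85.8, against 66.6 for all shared loci, and 9.58% of all protein-coding genes had one. A window of 2000 bp gave 21.7% of genes, and one of 10000 bp gave 47.1% and a median strength of 71.1, against the same 66.6. In the stronger 50% of each list the 10 genes had 0.674 loci per 10 kb and 23.0% of genes had a locus, and counting loci for the nearest start only gave 13.1% of genes. For the stronger 50%, no density over all protein-coding windows was counted. Within 200 bp of a start, 2 of the 10 genes had a locus in place of 6, and the share of all protein-coding genes at this distance was not counted. Leaving out a replicate in turn gave 34 to 42 loci, 1.04 to 1.29 per 10 kb, a median strength of 70.6 to 74.0 against 61.1 to 62.3 for all shared loci, and 34.0% to 41.1% of genes with a locus, with the highest counts and the lowest strengths without replicate 3. Of the counts per gene, sty fell to 1 locus with the body only or with the nearest start only, edl reached 5 without replicate 2 and Mkp3 5 without replicate 3. The strongest locus nearest to an own start of pnt had a strength of 65.7, in place of 91.7. Read depth is unknown, and its part in the missing loci was not tested. No paired analysis was possible because there is 1 group.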
